A study of Mus musculus with 2 samples.

Results

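The genes described are the neuregulins Nrg1, Nrg2, Nrg3 and Nrg4 and the ErbB receptors Egfr, Erbb2, Erbb3 and Erbb4, chosen by symbol and making up 8 of the 32285 genes counted. They were followed through single-nucleus RNA-seq of the mouse cerebellum on postnatal day 1. The control library came from Cre-negative littermates whose genotype is labelled Tox3f/f, although the library name also allows Tox3f/+. The other library came from Nestin-cre;Tox3f/f mice and is called here the library labelled cKO (conditional knockout). Tox3f is a loxP-flanked allele carried by both groups, and Nestin-Cre recombines it in neural precursors and their progeny, so microglia, which arise outside the neural lineage, keep it. Each library pooled 12 cerebella, so animals cannot be separated, no difference has a replicate check, and every interval below is an exact 95% interval for counting error only.

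Neuregulins are growth factors with an EGF-like domain, and most are made as membrane-bound precursors that proteases can release. They bind the receptor tyrosine kinases ErbB3 and ErbB4, while EGFR binds EGF and its relatives. ErbB2 has no known ligand of its own and serves as the partner of the others, and ErbB3 has little kinase activity and relies on such a partner. Active receptors recruit adaptors that lead to the RAS-MAPK and PI3K-AKT pathways. In the developing brain this system is known for its part in neuron migration along radial glia, in interneuron development and in myelinating glia.

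The genes differ greatly in size and place in the genome (GRCm38 throughout). The longest are Nrg3 (ENSMUSG00000041014, chromosome 14, 38368952 to 39473088, minus strand), Erbb4 (ENSMUSG00000062209, chromosome 1, 68032186 to 69108059, minus strand) and Nrg1 (ENSMUSG00000062991, chromosome 8, 31814551 to 32884029, minus strand), which span 1104, 1076 and 1069 kb. Nrg2 (ENSMUSG00000060275, chromosome 18, 36017652 to 36197380, minus strand), Egfr (ENSMUSG00000020122, chromosome 11, 16752203 to 16918158, plus strand) and Nrg4 (ENSMUSG00000032311, chromosome 9, 55220222 to 55326844, minus strand) span 180, 166 and 107 kb. Erbb2 (ENSMUSG00000062312, chromosome 11, 98412470 to 98437716, plus strand) and Erbb3 (ENSMUSG00000018166, chromosome 10, 128567523 to 128589652, minus strand) span 25.2 and 22.1 kb. Exons cover from 0.617% of the span in Nrg3 to 27.2% in Erbb3. Whether intronic reads were counted is not given in the sources used here. Levels are compared between genes only per kb of gene span, a scale that holds only if intronic reads were counted. Without them, division by span would put the long genes too low.

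Values given in pairs name the control first and the library labelled cKO second. After filtering there were 4667 control nuclei with 20493455 transcript counts (unique molecular identifiers, UMIs) and 6555 nuclei with 30169066 UMIs in the library labelled cKO, and 9 barcodes occurred in both. Tox3, the targeted gene, had 2127 and 3571 UMIs, or 104 and 118 CPM (counts per 1000000 UMIs of the library or class), so its count did not check the label. A count over the whole gene from a 3' kit need not fall when part of a gene is deleted. Clusters were named after cell classes, with the ending "-like", and 13 categories with at least 20 nuclei in each library were compared, 3 of them unnamed clusters. The libraries differed in makeup. Granule neuron progenitor (GNP)-like nuclei numbered 516 (11.1% of nuclei) and 118 (1.80%), Purkinje cell-like nuclei 292 and 719, and granule neuron (GN)-like nuclei 1130 and 1443. Unnamed nuclei of low depth made up 1014 and 692 nuclei, nearly all in clusters that came from a single library.

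The 8 genes held 190474 control UMIs (0.929% of all) and 239522 UMIs of the library labelled cKO (0.794%). Per kb of gene span, the level was highest for Erbb4 and Nrg1 in control, at 3.35 and 3.34 CPM per kb. In the library labelled cKO these stood at 2.52 and 2.80 CPM per kb. Nrg3 had 1.59 and 1.71 CPM per kb, Nrg2 0.996 and 1.18, and Egfr 0.984 and 0.815. The remaining members were near the limit of detection, with 0.0558 and 0.0575 CPM per kb for Nrg4, 0.0792 and 0.0840 for Erbb2, and 0.0220 and 0.0195 for Erbb3. ErbB4 was thus the neuregulin-binding receptor whose transcript could be followed in nearly every class, and Erbb3 rested on 10 and 13 UMIs.

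**Figure D1:**
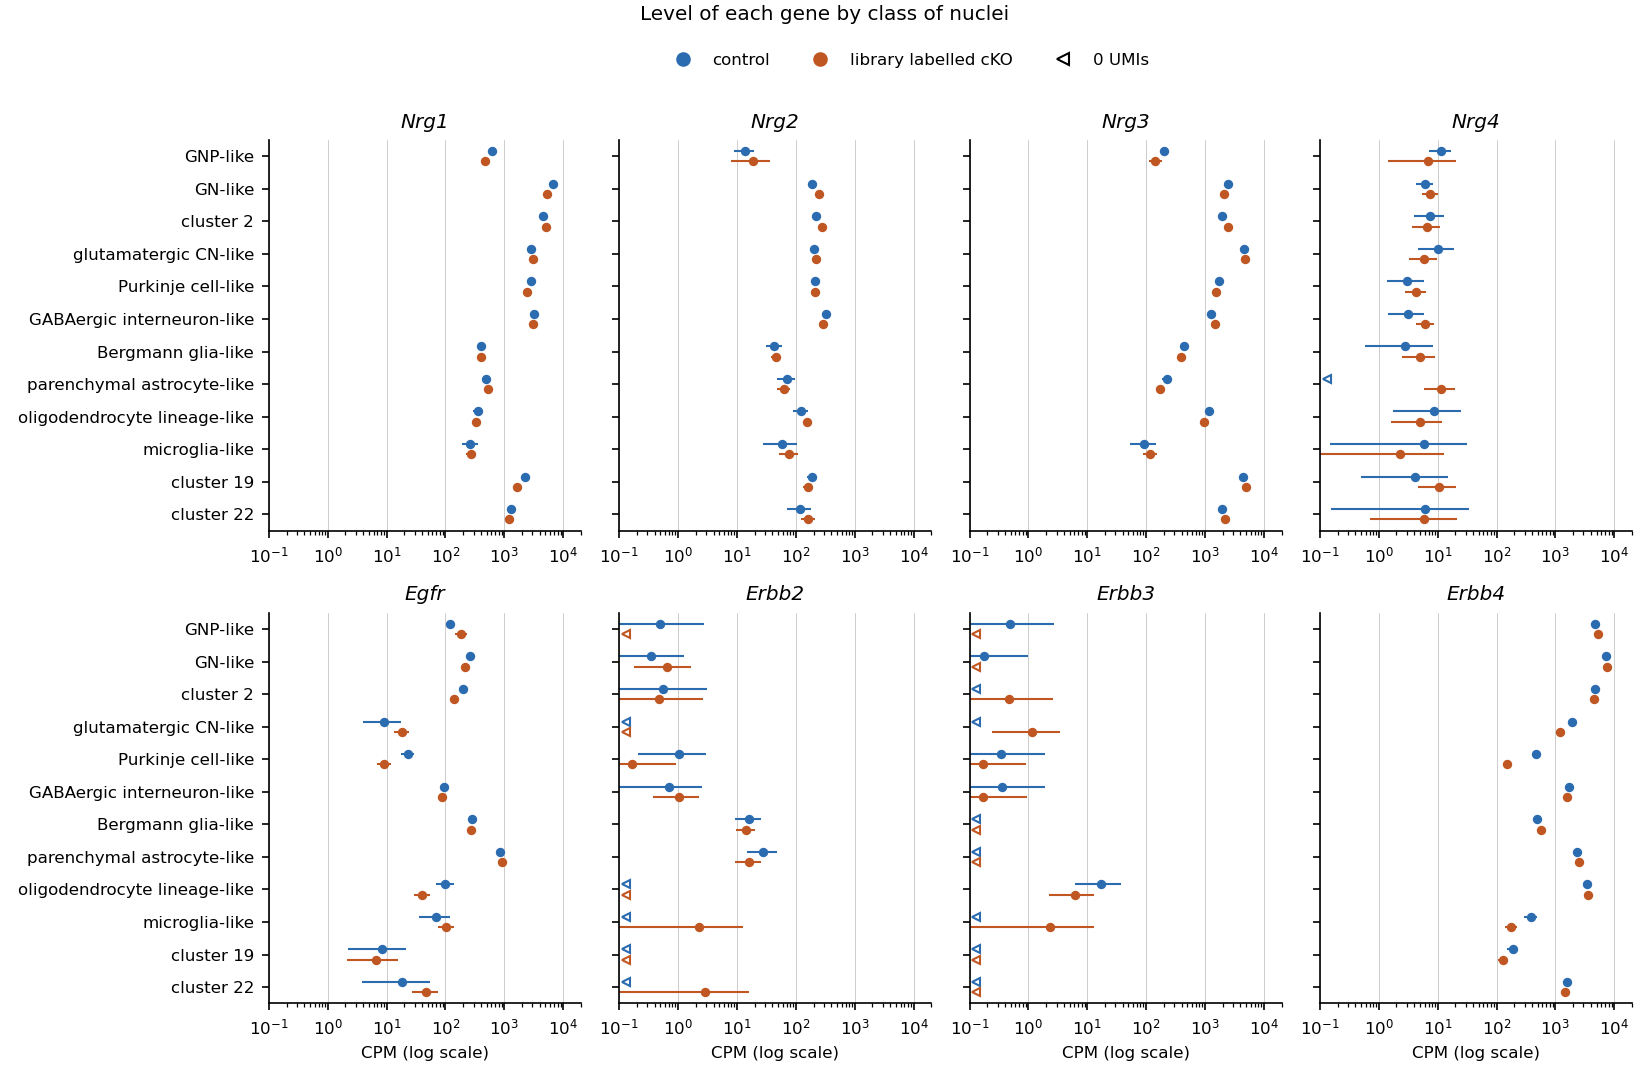
Level of each neuregulin and ErbB gene (CPM, log axis) in 12 of the compared categories of nuclei, control beside the library labelled cKO, with exact 95% Poisson intervals cut at 0.1 CPM; open triangles mark categories with 0 UMIs. Nrg1 and Erbb4 both peaked in GN-like nuclei, Egfr peaked in parenchymal astrocyte-like nuclei, and Erbb2 and Erbb3 had few or no UMIs in most categories.

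Nrg1, the founding neuregulin, peaked in GN-like nuclei with 6818 and 5324 CPM. The unnamed cluster 2, which shared granule neuron markers, followed with 4610 and 5038 CPM. GABAergic interneuron-like nuclei held 3156 and 3106 CPM, glutamatergic cerebellar nuclei (CN)-like nuclei 2861 and 3036 CPM, and Purkinje cell-like nuclei 2798 and 2440 CPM. The control intervals of the CN-like and Purkinje cell-like levels overlapped, while GN-like nuclei and cluster 2 stood apart from each other and from the rest in control. GNP-like nuclei were far lower at 621 and 471 CPM, and oligodendrocyte lineage-like nuclei held 354 and 331 CPM. Microglia-like nuclei, taken as a class that should lack neuregulins and ErbB receptors, held 265 and 272 CPM. With each nucleus thinned to 1000 UMIs, 94.4% and 90.4% of GN-like nuclei kept an Nrg1 UMI, against 23.4% and 22.7% of microglia-like nuclei (median depths before thinning 4648 and 3975, and 2917.5 and 2546 UMIs). The thinned share in oligodendrocyte lineage-like nuclei was 23.8% and 21.4%, close to that of microglia-like nuclei, and is read as background.

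Within the granule lineage, Nrg1 climbed from progenitor clusters to the clusters of neurons. Progenitor markers (Fgfr4 and Sfrp1) led cluster 18, and mitotic genes such as Top2a led cluster 15. The GN-like clusters were 7, 4 and 0. Of these, cluster 7 was led by Cntn2, which marks young granule neurons, and cluster 0 by Svep1. In control, Nrg1 was at 406 CPM in cluster 18, 771 in cluster 15, 3797 in cluster 7, 5739 in cluster 4 and 8107 in cluster 0. In the library labelled cKO the same clusters held 365, 516, 2089, 3783 and 6533 CPM. Both libraries thus had the same order, and the library labelled cKO was lower in each cluster.

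The ratio of the library labelled cKO to control for Nrg1 was lowest in cluster 7, at 0.55 (0.52 to 0.59), followed by cluster 4 at 0.66 (0.64 to 0.68). A call required at least a 1.5-fold difference with an interval that left out 1, and Nrg1 was called lower in these 2 clusters. Among all genes tested, 4.38% were called lower in cluster 7 and 3.61% in cluster 4. Cluster 15, with a ratio of 0.67 (0.56 to 0.79), and cluster 0, at 0.81 (0.79 to 0.82), fell short of the fold, and the interval in cluster 18 held 1 (0.90, 0.65 to 1.22). Counted per nucleus, the median in cluster 7 was 10 and 5 Nrg1 UMIs. It was 23 and 12 UMIs in cluster 4, and 43 and 26 in cluster 0, where median depth was 5752 and 4564 UMIs. Gli2, a progenitor transcription factor, moved beside Nrg1 in cluster 7 (189 and 68.5 CPM), and Cntn2 stood at 331 and 466 CPM there. Cluster 0 made up 32.4% and 51.1% of granule lineage nuclei, cluster 18 15.1% and 2.88%. The part of these marker shifts in the Nrg1 difference was not tested.

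**Figure D2:**
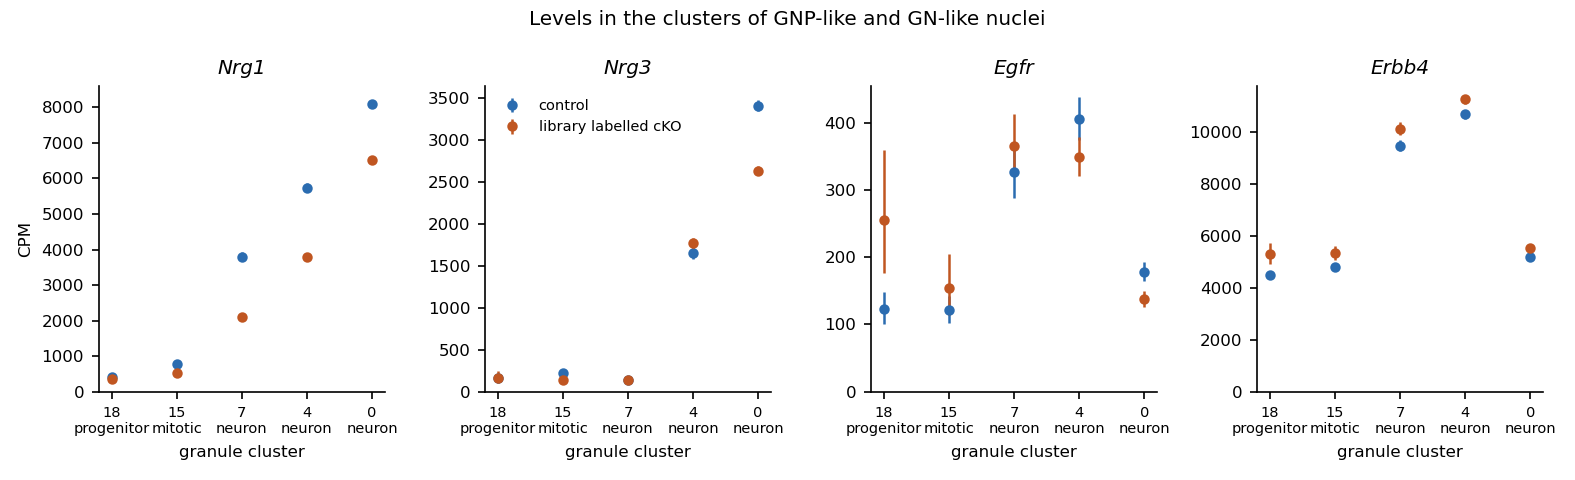
Levels (CPM) of Nrg1, Nrg3, Egfr and Erbb4 along the 5 granule lineage clusters, from the progenitor clusters 18 and 15 to the neuron clusters 7, 4 and 0, with 95% Poisson intervals, control beside the library labelled cKO. Nrg1 rose from 406 to 8107 CPM in control and from 365 to 6533 CPM in the library labelled cKO, while Erbb4 was highest in cluster 4 in both.

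Over all GN-like nuclei, Nrg1 had 39101 and 32821 UMIs, and its ratio was 0.78 (0.77 to 0.79), short of the fold for a call. GNP-like nuclei gave 0.76 (0.65 to 0.88) and the unnamed cluster 19 gave 0.75 (0.69 to 0.82). Purkinje cell-like nuclei gave 0.87 (0.85 to 0.90). GABAergic interneuron-like nuclei gave 0.98 (0.96 to 1.01), Bergmann glia-like nuclei 1.00 (0.89 to 1.12), CN-like nuclei 1.06 (1.01 to 1.11) and cluster 2 gave 1.09 (1.06 to 1.13). A ratio below 1 was not particular to the granule lineage, since cluster 19 and Purkinje cell-like nuclei also had intervals below 1. Under some alternatives Nrg1 was lower in further classes. It was at 0.73 in CN-like nuclei gated by markers and at 0.75 in parenchymal astrocyte-like nuclei at a clustering resolution of 1.2. With no doublets removed it was at 0.69 in Bergmann glia-like and 0.49 in oligodendrocyte lineage-like nuclei, the latter read as background above. Thinned Nrg1 shares were 25.8% and 25.1% in Bergmann glia-like nuclei and 28.9% and 26.2% in parenchymal astrocyte-like nuclei. Both classes were thus little above microglia-like nuclei (23.4% and 22.7%). Of all Nrg1 UMIs, GN-like nuclei held 53.4% and 36.4%.

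Nrg2, a neuregulin made mostly by neurons, was highest in GABAergic interneuron-like nuclei, with 321 and 290 CPM. Cluster 2 followed with 223 and 281 CPM, and in the library labelled cKO the intervals of these 2 overlapped. Purkinje cell-like nuclei held 216 and 212, CN-like nuclei 204 and 222, and GN-like nuclei 190 and 248. Among interneuron clusters it was concentrated in cluster 8, with 574 and 496 CPM. GNP-like nuclei were nearly without it, at 13.6 and 18.5 CPM, and the granule clusters again ran from low to high, with 14.2 and 29.1 CPM in cluster 7, 94.6 and 122 in cluster 4 and 281 and 339 in cluster 0. The GN-like ratio was 1.30 (1.21 to 1.41), opposite in direction to Nrg1, and that of interneuron-like nuclei was 0.90 (0.83 to 0.98). At equal depth, 14.3% and 18.9% of GN-like nuclei and 24.0% and 21.9% of interneuron-like nuclei kept an Nrg2 UMI, against 7.18% and 5.24% of microglia-like nuclei. No class reached the fold for a call.

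Nrg3, an ErbB4 ligand of neurons, was highest in CN-like nuclei, at 4561 and 4820 CPM, and in cluster 19, at 4388 and 4902 CPM. The intervals of these 2 overlapped within each library. Next in control came GN-like nuclei at 2440 and 2129 CPM, with cluster 2 at 1941 and 2409, above GN-like nuclei in the library labelled cKO, and Purkinje cell-like nuclei at 1700 and 1547. Oligodendrocyte lineage-like nuclei also held Nrg3, at 1145 and 958 CPM. At equal depth 62.1% and 50.8% of those nuclei kept an Nrg3 UMI, against 9.66% and 12.5% of microglia-like nuclei. Nrg2 was above its background there as well, with thinned shares of 11.8% and 14.6%. In GNP-like nuclei the thinned Nrg3 share was 15.2% and 12.3%, above that background in control and close to it in the library labelled cKO.

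Nrg3 appeared later along the granule clusters than Nrg1. In control it was at 159, 227 and 144 CPM in clusters 18, 15 and 7, then at 1647 CPM in cluster 4 and 3406 CPM in cluster 0. The library labelled cKO had 163, 135, 137, 1764 and 2632 CPM in the same order. The step thus lay between clusters 7 and 4 in both libraries, while Nrg1 was already high in cluster 7. The ratio was 0.95 (0.72 to 1.26) in cluster 7, 1.07 (1.02 to 1.13) in cluster 4 and 0.77 (0.75 to 0.79) in cluster 0. In the mitotic cluster 15 it was 0.59 (0.42 to 0.83) on 274 and 41 UMIs, a call against a background of 6.71% of genes called lower there. Over whole classes Nrg3 was not called, with 0.87 (0.85 to 0.89) in GN-like nuclei, 0.91 (0.88 to 0.94) in Purkinje cell-like nuclei, 1.14 (1.10 to 1.19) in interneuron-like nuclei and 1.24 (1.19 to 1.30) in cluster 2.

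Nrg4, a short neuregulin best known from fat tissue, had 122 and 185 UMIs over all kept nuclei. GNP-like nuclei held 23 and 3 of them, at 11.2 and 6.92 CPM. Parenchymal astrocyte-like nuclei had 0 UMIs in control, which allows a level of up to 7.86 CPM by the exact interval, against 12 UMIs (11.4 CPM), and the interval of this ratio began at 1.24, on fewer than the 20 UMIs needed for a call. The other Nrg4 class ratios had intervals that held 1. At this depth no order of classes could be read for Nrg4.

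Among the receptors, Erbb4 was the one highest in the granule lineage. GN-like nuclei held 7315 and 7508 CPM, and 99.4% and 99.5% of them carried an Erbb4 UMI. GNP-like nuclei were already at 4662 and 5322 CPM, so Erbb4 was already high in progenitor-like nuclei, where Nrg1, Nrg2 and Nrg3 were low. Cluster 2 had 4768 and 4518 CPM and oligodendrocyte lineage-like nuclei 3506 and 3549. Parenchymal astrocyte-like nuclei (2330 and 2474 CPM), CN-like nuclei (1894 and 1194) and interneuron-like nuclei (1693 and 1570) formed a middle range. Bergmann glia-like nuclei were lower at 495 and 578 CPM, so Erbb4 separated the 2 astroglial classes. Purkinje cell-like nuclei (476 and 148 CPM), microglia-like nuclei (380 and 178) and cluster 19 (189 and 131) were lowest.

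Equal depth sorted the low end of this order. After thinning to 1000 UMIs, at least 97.1% of GN-like nuclei in each library, 93.8% and 96.2% of GNP-like nuclei and 29.3% and 33.4% of Bergmann glia-like nuclei kept an Erbb4 UMI. Microglia-like nuclei stood at 16.4% and 16.6%. Purkinje cell-like nuclei, whose median depth was 9282.5 and 7956 UMIs, fell to 16.9% and 8.80%, and cluster 19 to 13.5% and 8.34%. These shares did not exceed that of microglia-like nuclei by more than a point and are read as background. A share counts nuclei with any UMI, so it does not show how the UMIs were spread over the nuclei, which is given below for Purkinje cell-like and microglia-like nuclei.

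Along the granule clusters Erbb4 peaked in the neuron cluster 4. The control levels were 4496, 4778, 9456, 10655 and 5166 CPM in clusters 18, 15, 7, 4 and 0, and those of the library labelled cKO were 5300, 5331, 10115, 11231 and 5511 CPM. The peak in cluster 4 and the lower level in cluster 0 were present in both libraries. Each cluster was slightly higher in the library labelled cKO, by a ratio of 1.05 (1.03 to 1.08) in cluster 4 to 1.18 (1.09 to 1.28) in cluster 18. Nrg1, by contrast, was highest in cluster 0, so the ligand and the receptor did not peak in the same cluster. Among the interneuron clusters, the Pax2-led cluster 11 held 4157 and 4487 CPM of Erbb4 and the mitotic cluster 21 held 3951 and 4532, against 1820 and 1639 CPM in cluster 12, 836 and 518 in cluster 14 and 403 and 410 in cluster 8. Nrg1 was low in cluster 11, at 1307 and 1303 CPM, and high in cluster 14, at 4836 and 4518 CPM, and cluster 8, at 4523 and 4327 CPM.

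Over all kept nuclei, where fewer cells of a type and less RNA per cell cannot be told apart, Erbb4 fell from 3609 to 2707 CPM, a ratio of 0.75 (0.74 to 0.76). Nrg1 went from 3576 to 2990 CPM (0.84, 0.83 to 0.84) and Egfr from 163 to 135 CPM (0.83, 0.79 to 0.87). Nrg2 went from 179 to 212 CPM (1.18, 1.14 to 1.23) and Nrg3 from 1759 to 1886 CPM (1.07, 1.06 to 1.09). Of the 8 genes, 0 reached the fold for a call, in a comparison where 10.1% of the 20214 genes tested were called in either direction. With 1 library per group no replicated test could be run. The intervals of Nrg4 (1.03, 0.82 to 1.31), Erbb2 (1.06, 0.71 to 1.61) and Erbb3 (0.88, 0.36 to 2.25) held 1.

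To set the makeup of the libraries aside, the class levels of the library labelled cKO were weighted by the UMI shares of the 13 categories in control. The Erbb4 ratio over these categories was 0.74 before and 1.00 (0.99 to 1.02) after weighting, with 3687 CPM in control and 3700 CPM weighted. Both classes of the granule lineage, where Erbb4 was high, had smaller UMI shares in the library labelled cKO. GN-like nuclei held 28% and 20.4% of all UMIs and 41947 and 46282 Erbb4 UMIs, and GNP-like nuclei, at 1.44% of all UMIs in the library labelled cKO, held 9584 and 2306 Erbb4 UMIs. For Nrg1 the ratio moved only from 0.83 to 0.87 (0.86 to 0.88), and for Egfr from 0.82 to 0.91 (0.86 to 0.96). Nrg3 went from 1.06 to 0.98 (0.97 to 1.00) and Nrg2 from 1.17 to 1.11 (1.06 to 1.16). The whole-library difference of Erbb4 was thus absent when class shares were held at their control values, while that of Nrg1 was not.

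**Figure D3:**
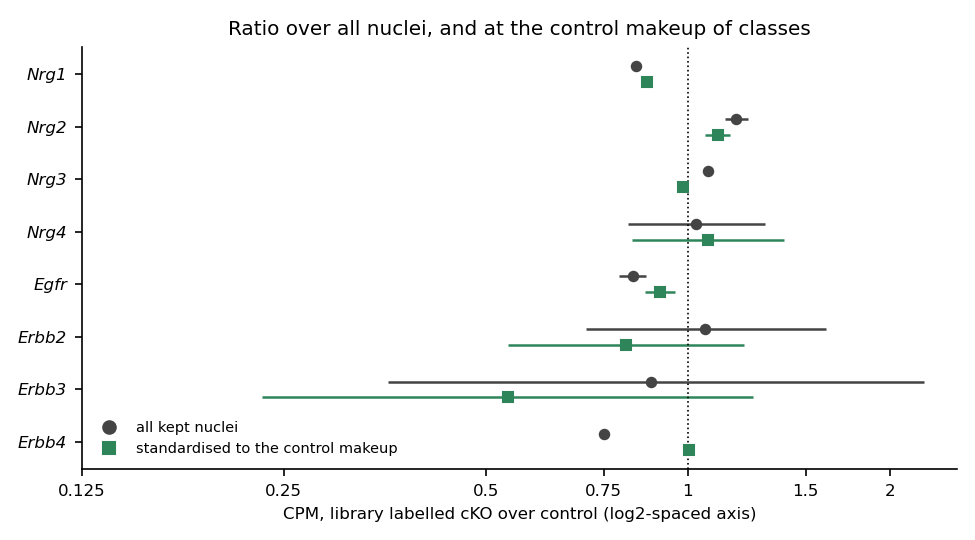
Ratio of the library labelled cKO to control (log axis) for each member, over all kept nuclei (circles) and with the class levels of the library labelled cKO weighted to the control makeup (squares), with 95% counting intervals. Erbb4 stood at 0.75 and 1.00, Nrg1 at 0.84 and 0.87, and the intervals of Nrg4, Erbb2 and Erbb3 were wide.

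Within classes, 71 pairs of member and category had at least 20 UMIs over both libraries. Of these, 1 was called higher and 6 were called lower in the library labelled cKO, where 3.08% and 3.73% of all pairs of gene and category tested were called, and 38 intervals held 1. The lower calls were all of receptors. The call for Erbb4 in CN-like nuclei stood above background, at 1894 CPM (1675 UMIs in 74 nuclei) in control and 1194 CPM (3073 UMIs in 261 nuclei), a ratio of 0.63 (0.59 to 0.67), where 3.47% of all genes tested were called lower. At equal depth 64.2% of control CN-like nuclei and 48.1% of those in the library labelled cKO kept an Erbb4 UMI. Nuclei with at least 10 Erbb4 UMIs were 46 of 74 (62.2%) and 102 of 261 (39.1%), and those with 0 UMIs were 8.11% and 20.3%. Marker levels moved beside Erbb4. The summed CN markers stood at 1448 and 1263 CPM, the midbrain or hindbrain neuron markers at 412 and 469 CPM, and the GN markers at 362 and 320 CPM. CN-like nuclei with at least 10 Erbb4 UMIs had CN markers at 1658 and 1374 CPM, against 994 and 1188 CPM in the others. The midbrain or hindbrain neuron markers ran the other way, at 328 and 353 CPM against 592 and 547 CPM. The part of these markers in the difference was not tested. This class was named from 3 markers, Slc17a6, Meis2 and Lhx9.

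Erbb4 in Purkinje cell-like nuclei fell from 1402 UMIs (476 CPM) to 889 UMIs (148 CPM), a ratio of 0.31 (0.28 to 0.34), where 4.08% of genes were called lower. It was called lower in both Purkinje cell-like clusters, at 0.18 in cluster 6 and 0.48 in cluster 9, where 4.1% and 3.62% of genes were. A few nuclei carried the counts. In control, 28 of 292 nuclei (9.59%) had at least 10 Erbb4 UMIs and held 1133 of the 1402 UMIs (80.8%). In the library labelled cKO, 20 of 719 nuclei (2.78%) did so and held 480 of 889 UMIs (54.0%). Beside the Erbb4 counts, the summed GN markers in those nuclei were at 838 and 581 CPM, against 223 and 152 CPM in the other Purkinje cell-like nuclei, and the Purkinje cell markers were at 17194 and 18499 CPM against 23451 and 22265. The part of granule lineage RNA in this difference was not tested. Without the 10% of nuclei highest in GN markers in each class and library, an alternative added after seeing the data, the ratio was 0.53.

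**Figure D4:**
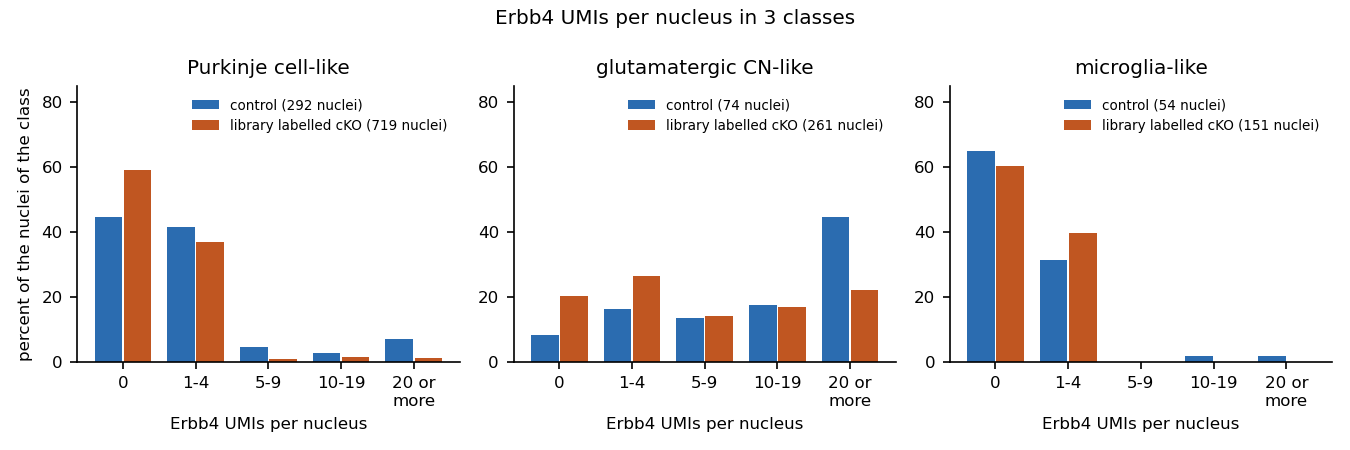
Percent of the nuclei of Purkinje cell-like, CN-like and microglia-like classes in bins of Erbb4 UMIs per nucleus, control beside the library labelled cKO. Purkinje cell-like nuclei with 0 UMIs were 44.5% and 59.2%, and CN-like nuclei with at least 20 UMIs were 44.6% and 22.2%.

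Microglia-like nuclei had an Erbb4 ratio of 0.47 (0.33 to 0.66) on 66 and 77 UMIs, where 3.47% of genes were called lower. In control, 2 of the 54 nuclei held 43 of the 66 UMIs, while no nucleus in the library labelled cKO held more than 3. Those 2 nuclei had microglia markers at 4717 CPM, against 11330 CPM in the other control microglia-like nuclei, and with no doublets removed the ratio turned to 1.15. In the other direction, GNP-like nuclei gave 1.14 (1.09 to 1.19) and Bergmann glia-like nuclei 1.17 (1.06 to 1.30), below the fold for a call, and the Bergmann glia-like ratio was 0.95 with no doublets removed. GN-like nuclei, with 41947 and 46282 UMIs, gave 1.03 (1.01 to 1.04). Oligodendrocyte lineage-like nuclei (1.01, 0.95 to 1.08) and parenchymal astrocyte-like nuclei (1.06, 0.99 to 1.14) had intervals that held 1. Of the interneuron clusters, cluster 14 was called lower at 0.62 (background 2.53%).

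**Figure D5:**
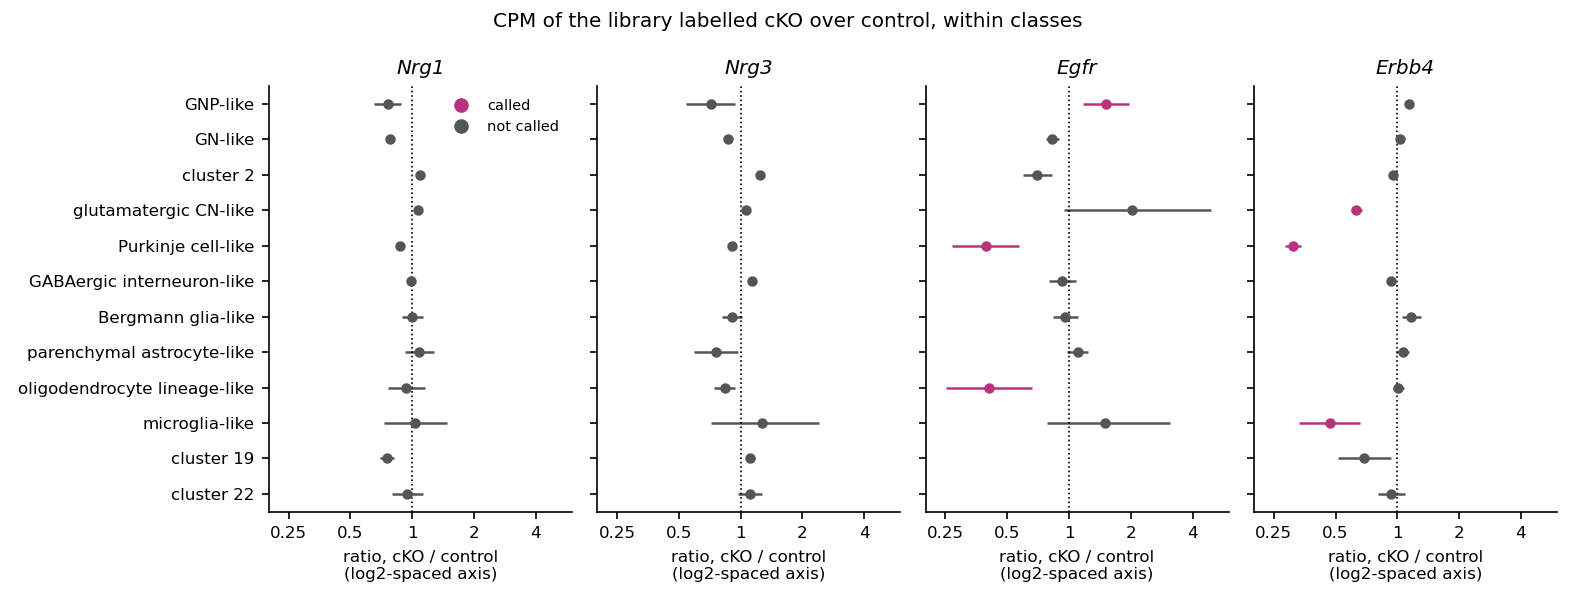
Ratio of the library labelled cKO to control (log axis) for Nrg1, Nrg3, Egfr and Erbb4 within 12 categories, where a gene had at least 20 UMIs over both libraries, with 95% counting intervals and the called pairs coloured. The called pairs shown all belong to Egfr or Erbb4, and the Nrg1 and Nrg3 ratios shown were not called.

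Egfr, the receptor of EGF and transforming growth factor alpha, was highest in parenchymal astrocyte-like nuclei. Bergmann glia-like nuclei came next and were near GN-like nuclei in control. GABAergic interneuron-like nuclei (95.1 and 88.4 CPM) and Purkinje cell-like nuclei (22.8 and 8.97 CPM) were far lower. Parenchymal astrocyte-like nuclei held 829 and 913 CPM, and at equal depth 48.1% and 49.6% of them kept an Egfr UMI. Bergmann glia-like nuclei held 278 and 267 CPM and GN-like nuclei 263 and 218 CPM, with overlapping intervals in control and separate ones in the library labelled cKO. CN-like nuclei, at 9.05 and 18.3 CPM, and cluster 19, at 8.23 and 6.61 CPM, were among the lowest. Among interneuron clusters the mitotic cluster 21 was highest, at 533 and 738 CPM. In the granule lineage Egfr was highest in cluster 4 in control, at 405 CPM, and in cluster 7 in the library labelled cKO, at 366 CPM.

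GNP-like nuclei gave the only higher call among the members, for Egfr at 122 CPM (250 UMIs) and 185 CPM (80 UMIs), a ratio of 1.52 (1.17 to 1.96) where 6.15% of genes were called higher. The progenitor cluster 18 gave 2.09 (1.37 to 3.11) on 104 and 33 UMIs, where 6.43% of genes were called higher, and the mitotic cluster 15 gave 1.28 (0.90 to 1.79). At equal depth 10.9% and 15.9% of GNP-like nuclei kept an Egfr UMI, against 6.10% and 7.55% of microglia-like nuclei. Other markers moved with it in GNP-like nuclei. The summed parenchymal astrocyte markers, from the class with the most Egfr, were at 334 and 572 CPM and the GN markers at 1897 and 2564 CPM. Their part in the difference was not tested.

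The lower class calls for Egfr described here were in classes whose thinned share lay below that of microglia-like nuclei. Purkinje cell-like nuclei had 67 and 54 UMIs (0.39, 0.27 to 0.57), and 1.87% and 0.788% of them kept an Egfr UMI at equal depth. Oligodendrocyte lineage-like nuclei had 35 and 40 UMIs (0.41, 0.25 to 0.66, with 4.18% of genes called lower) and thinned shares of 4.97% and 3.53%. There 1 control nucleus held 15 of the 35 UMIs, and with no doublets removed the ratio was 0.81, short of a call. Among interneuron clusters Egfr was called lower in cluster 8 (34 and 38 UMIs, 0.57), cluster 12 (21 and 21 UMIs, 0.49) and cluster 14 (30 and 30 UMIs, 0.43), where 2.5%, 3.18% and 2.53% of genes were called lower. The Egfr ratio was 0.83 (0.77 to 0.89) in GN-like nuclei and 0.70 (0.60 to 0.82) in cluster 2, and its intervals in the 2 astroglial classes held 1.

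Erbb2 and Erbb3 had the fewest UMIs of the members. Erbb2 had 41 and 64 UMIs, of which Bergmann glia-like nuclei held 17 and 31 and parenchymal astrocyte-like nuclei 13 and 17. These 2 classes thus held most Erbb2 UMIs in both libraries, at 15.9 and 14.1 CPM and at 27.7 and 16.2 CPM. CN-like and oligodendrocyte lineage-like nuclei and cluster 19 had 0 Erbb2 UMIs in both libraries. Oligodendrocyte lineage-like nuclei held 6 of 10 and 6 of 13 Erbb3 UMIs, at 17.0 CPM (6.24 to 37.0) and 6.07 CPM (2.23 to 13.2). A difference in Erbb2 or Erbb3 between the libraries was not detectable at this depth.

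Ligand and receptor often shared a nucleus, as follows where each is found in most nuclei. Nrg1 was found in 97.0% and 96.5% of GN-like nuclei and Erbb4 in nearly all of them. Sharing beyond such separate rates was not tested. UMIs of both Nrg1 and Erbb4 were found in 96.7% and 96.5% of GN-like nuclei and 92.9% and 94.7% of cluster 2 nuclei. The share was 90.5% and 78.2% in CN-like nuclei, where Erbb4 was lower in the library labelled cKO. Microglia-like nuclei stood at 16.7% and 19.2%. These shares were taken at full depth, which was lower in microglia-like nuclei (median 2917.5 and 2546 UMIs) than in CN-like nuclei (11322.5 and 9029), so they are not comparable between classes. In oligodendrocyte lineage-like nuclei the pair was Nrg3 with Erbb4, at 93.4% and 80.1%.

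Across 26 profiles, 1 for each category and library, Nrg1, Nrg2 and Nrg3 resembled each other more than Erbb4. The profiles share their libraries, and median depths differ between categories, so Pearson's r of log2(CPM + 1) is given only as a description. It was 0.79 for Nrg2 with Nrg3, 0.78 for Nrg1 with Nrg3 and 0.75 for Nrg1 with Nrg2, against 0.22 for Nrg1 with Erbb4. Nrg4, with few UMIs, stood at 0.20 with Nrg1 and 0.25 with Erbb4. Egfr and Erbb4 stood at 0.53, and Nrg3 and Egfr at -0.60. Among 13634 genes with at least 200 UMIs, the most similar to Nrg1 were Serpini1 (0.95), Rapgef4 (0.93) and Slc6a17 (0.93). For Nrg2 they were Sgk1, Cpeb3 and Slc4a10, for Nrg4 Stk16, Wdtc1 and B3galt6, and for Erbb4 Chd7 (0.88), 9130015G15Rik and Nav2. For Nrg3 they were Nrg3os (0.99), Gm20642 and Gm20641, all annotated on the opposite strand inside Nrg3, and for Egfr they were Egfros (0.91), from its opposite strand, Nfix and Nfia.

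The rest of the pathway was followed through 88 genes in 7 lists, covering other EGF-family ligands, sheddases, adaptors, the MAPK and PI3K arms, other effectors and negative regulators. Over all kept nuclei 84 were tested, 2 were called higher and 1 lower, against backgrounds of 4.58% and 5.57% of all genes. The median log2 ratio over these genes was -0.02, as it was over all genes. Plcg2, a phospholipase, went from 3.95 to 6.76 CPM (1.71, 1.32 to 2.24) and Camk2a, a calcium-dependent kinase, from 20.5 to 31.6 CPM (1.54, 1.37 to 1.73). Lrig3, of a family of transmembrane proteins that act on ErbB receptors, went from 31.2 to 15.1 CPM (0.49, 0.43 to 0.55). Its level within GNP-like nuclei, the class that was fewer, was 177 and 173 CPM.

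Within categories, from 0 (cluster 19) to 6 pathway genes were called. In GN-like nuclei 80 were tested and 3 called: Spry1, a feedback inhibitor of MAPK signalling, was higher at 3.35 on 5 and 18 UMIs, and the adaptor Shc1 (0.33) and Rhbdf1 (0.51), a regulator of the sheddase ADAM17, were lower, where 2.92% and 3.5% of genes were called higher and lower. In Purkinje cell-like nuclei 3 of 77 were lower, where 4.08% of genes were called lower. They were the adaptors Shc3 at 62.5 and 12.1 CPM (0.19, 0.15 to 0.26), Shc4 at 22.8 and 5.98 CPM (0.26, 0.17 to 0.40) and Gab1 at 36.0 and 23.1 CPM (0.64). Elsewhere Shc3 was at 386 and 292 CPM in oligodendrocyte lineage-like nuclei and 80.4 and 80.6 CPM in GN-like nuclei. It was at 48.6 and 44.7 CPM in CN-like nuclei and 10.2 and 16.2 CPM in GNP-like nuclei, below Purkinje cell-like nuclei in control. CN-like nuclei, where Erbb4 was lower, had 4 of 72 called higher, the adaptor Shc2 (2.19), Jak2 (1.56), Camk2a (1.90) and Errfi1 (4.47), a feedback inhibitor of EGFR, and 0 called lower, where 3.03% and 3.47% were called. GNP-like nuclei had 4 of 67 called lower, Nck1, Crkl, Tab2 and Prkca, where 7.53% of genes were. In oligodendrocyte lineage-like nuclei Fyn, a kinase of the myelinating lineage, was higher (1.63), and 5 of 67 genes were lower, among them Akt1, Pak1, Lrig3 and Cbl, where 3.92% and 4.18% of genes were called. In cluster 2, Pik3r1 (1.71) and Lrig1 (1.68) were higher and the adaptor Gab1 (0.50), Map2k1, Akt2 and Spry2 were lower, of 71 tested, where 3.93% and 4.26% of genes were. In GABAergic interneuron-like nuclei Hras (2.60, 14 and 74 UMIs) and Dusp6 (2.19, 9 and 40 UMIs), a phosphatase that turns MAPK signalling down, were higher, where 1.42% of genes were called higher.

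Microglia-like nuclei had 3 of 56 pathway genes called higher and 2 lower, where 3.27% and 3.47% of genes were. Tgfa, which encodes the EGFR ligand transforming growth factor alpha, had 2 and 29 UMIs, or 11.5 and 66.9 CPM, a ratio of 5.81 with a wide interval (1.47 to 50.3). Socs5 (3.87) and Braf (1.76) were the other higher genes, and Crk (0.58) and Cblb (0.42) were lower.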

How the data were processed

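Nuclei from 12 pooled cerebella per group gave 1 library each (10x Genomics 3' v3.1 kit). Per the labels and the study's methods, the authors counted reads with Cell Ranger 7.0.1 (bcl2fastq, mm10), and the deposited values are raw UMI counts per gene and nucleus, not normalised. SoupX, the study's correction for free RNA, was not applied here.

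Nuclei with over 25% mitochondrial UMIs were removed (1 control, 5 in the library labelled cKO), then Scrublet doublets (scanpy 1.11.5; top 0.8% per 1000 barcodes; 189 and 386). Seurat 5.3.0 in R 4.3.3 integrated the libraries (3000 variable features, 2000 for integration, 30 and 20 dimensions, resolution 0.8), with the members and pathway genes kept out of the features. A cluster was named where at least 3 markers were in 10% of nuclei and 2-fold above the other clusters, and where the list averaged a log2 fold of 1 or more (pseudocount 5 CPM), unless low in depth or led by genes of another class; this scoring was set after the clusters were seen. The members and lists were chosen with earlier results of these data known.

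Nuclei are not replicates, so no p-value was computed. CPM carry Poisson intervals, ratios conditional binomial intervals and shares Clopper-Pearson intervals, and the weighted ratio a delta-method interval, all at 95%. Genes needed 20 UMIs over both libraries to be tested for a call. Thinned shares are expectations over all thinnings to 1000 UMIs. Pathway genes were named where called, at most 10 over the whole library and 5 per class by size, and similar genes were the 3 with the highest r. The ratio and call step was tested on simulated data. Values of 1 compared category and 1 pathway gene, which stay in the counts, are not reported here. Coordinates are from GENCODE on GRCm38. Python 3.11.15, numpy 2.4.6, scipy 1.17.1 and pandas 2.3.3 were used. Alternatives changed doublet removal, scaling, depth, the clustering and the naming of nuclei.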

Additional observations from a re-analysis of the deposited data

Results flagged for a closer look

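For Erbb4, the ratio of the library labelled cKO to control lay on opposite sides of 1 in Bergmann glia-like nuclei (1.17, 528 and 1269 UMIs) and Purkinje cell-like nuclei (0.31, 1402 and 889 UMIs), with intervals that left out 1 in each. For Egfr it lay above 1 in GNP-like nuclei (1.52, 250 and 80 UMIs) and below 1 in Purkinje cell-like nuclei (0.39, 67 and 54 UMIs). These differences between classes were not tested, as each group was 1 library. With no doublets removed, Erbb4 in Bergmann glia-like nuclei was at 0.95, on the other side of 1. The thinned share of Purkinje cell-like nuclei with an Egfr UMI (1.87% and 0.788%) lay below that of microglia-like nuclei (6.10% and 7.55%).

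The nuclei of low depth entered no comparison between classes. Nrg3 in them was at 914 CPM in control (634 UMIs) and 1147 CPM in the library labelled cKO (519 UMIs), a ratio of 1.255 (1.12 to 1.41). The low-depth nuclei of the libraries fell into different clusters, 993 control nuclei in cluster 1 and 664 nuclei of the library labelled cKO in cluster 5.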

How the results depend on the processing

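The weighted ratio of Erbb4 stayed near 1 under the alternatives tried. Where it moved beyond its interval, it was 1.02 with median-of-ratios scaling, 1.02 thinned to 1000 UMIs, 0.97 with nuclei gated by markers and 1.03 at resolution 1.2. That of Nrg1 stayed below 1, with 0.86 with no doublets removed, 0.88 with median-of-ratios scaling, 0.85 thinned, 0.84 gated and 0.86 at resolution 0.4. Weighted Nrg3 changed sides, at 1.02 thinned and 1.02 gated but 0.97 at resolution 1.2 and 0.96 with libraries merged. Weighted Nrg2 was 1.19 thinned and weighted Egfr 0.99 gated.

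Over all kept nuclei, Nrg1 was 0.85 with median-of-ratios scaling, 0.83 with nuclei of at least 1000 genes, 0.82 thinned, 0.81 over named classes and 0.89 with nuclei weighted equally. In the same order Erbb4 was 0.76, 0.74, 0.79, 0.73 and 0.85. Thinned and equally weighted, Nrg2 was 1.30 and 1.30, and Egfr 0.90 and 0.99. Nrg3 was 1.04 over named classes and 1.13 equally weighted.

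Member calls in named classes numbered 2 higher with no doublets removed, at resolution 0.4 and with libraries merged. Thinned, 0 were higher and 2 lower, with fewer UMIs. The share of all genes called under these settings was not computed, so these counts have no background beside them. At a lower fold limit, with the UMI minimum unchanged, 6 of 84 pathway genes tested were higher and 5 lower over all nuclei. At that limit 9.52% and 10.6% of all 20214 genes tested were called higher and lower. Erbb4 in microglia-like nuclei reversed to 1.15 with no doublets removed, where Erbb4 in Bergmann glia-like nuclei was 0.95 and Egfr in oligodendrocyte lineage-like nuclei 0.81. The CN-like Erbb4 ratio ranged from 0.48 to 0.68, the Purkinje cell-like one from 0.31 to 0.53, and Egfr in GNP-like nuclei from 1.51 to 1.75. Except where stated, the cause was not tested. No paired analysis was possible because each group has 1 library. Counts of 10 to 185 UMIs per library limit Nrg4, Erbb2 and Erbb3.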

Other observations

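Several long noncoding genes lie on the opposite strand within the members. Over all kept nuclei Nrg3os had 10365 and 16207 UMIs, a ratio of 1.06 like that of Nrg3, and Gm20642 had 10389 and 15240 UMIs (1.00). Egfros, opposite Egfr, had 1939 and 2343 UMIs (94.6 and 77.7 CPM, 0.82), close to the ratio of Egfr. The gene 4930471G03Rik, opposite Nrg2, had 408 and 861 UMIs and a ratio of 1.43. Whether the counting used strand is not given in the sources used here, so reads of these genes and of their partners may not be separable. Gm16076 lies on the same strand within Erbb4 and had 7 and 13 UMIs.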
